A study of Mus musculus with 3 samples.

Results

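The replication-dependent histone genes were examined in bulk RNA-seq of the E10.5 maxillary process. Members were the protein-coding genes listed in the count files whose GENCODE M21 name begins with Hist1h, Hist2h, Hist3h or Hist4h, which gave 67 of the 55401 genes listed. They comprised 6 genes for the linker histone H1, 18 for H2A, 18 for H2B, 12 for H3 and 13 for H4. By name, 54 belonged to the Hist1 cluster on chromosome 13, 10 to the Hist2 cluster on chromosome 3, 2 to the Hist3 cluster on chromosome 11 and 1 was *Hist4h4* on chromosome 6. Names are those of GENCODE M21, and later nomenclature renamed all of these genes.

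Libraries came from 3 independent RNA samples of maxillary prominences of *wnt1cre; Rosa26Dlx2/-* mice (OE), in which wnt1-driven Cre removes a stop cassette from a Rosa26CAG-LSL-Dlx2-3xFlag allele so that neural crest cells overexpress *Dlx2*. They are named replicates 1, 2 and 3, and the number carries no other meaning. All 3 carry the same alleles and stage, and no wild-type library was analysed here, and nothing below compares genotypes. *Dlx2* itself had 9089, 7150 and 6890 counts, which do not separate the transgene from the endogenous gene. The dissected prominence also holds cells that wnt1cre does not mark, and in bulk tissue fewer cells of a type and less RNA per cell cannot be told apart. Whether each sample pooled several embryos was not given in the sources used here.

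Replication-dependent histones supply the nucleosome proteins needed while DNA is copied in S phase: H2A, H2B, H3 and H4 form the core particle and H1 binds the linker DNA. Their genes lack introns as a rule and lie in clusters. Their mRNAs are the only metazoan mRNAs known to end in a conserved stem-loop instead of a poly(A) tail. The stem-loop is bound by SLBP and the pre-mRNA is cleaved after it, with help from the U7 snRNP. Replication-independent histones such as H2A.Z come from other genes whose mRNAs are polyadenylated throughout the cell cycle. The libraries here were made from RNA captured on poly-T beads, so a histone mRNA that ends at its stem-loop is not a target of the capture.

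The stem-loop sequences are shown first because they define how these mRNAs end. The search took any 16 bases that begin with GG, whose first 6 bases are complementary to the last 6 and whose loop of 4 bases begins with TTT, on the coding strand of the annotated transcript after the stop codon. Of the 67 members, 52 had at least 16 annotated bases after the stop codon, and 44 of these (84.6%) held a stem-loop, in each case within 100 bases of the stop codon. The same pattern was found in 19 of 20832 other protein-coding genes (0.0912%). The forms below are from GENCODE M21 transcripts on GRCm38, written 5′ to 3′ with the stem-loop in capitals and 5 flanking bases on either side in lower case. They cover the most abundant members and each form found.
*Hist1h4i*, chr13:22040961-22040986, minus strand: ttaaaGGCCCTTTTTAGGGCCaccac
*Hist1h1c*, chr13:23739507-23739532, plus strand: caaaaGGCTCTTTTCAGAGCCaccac
*Hist3h2ba*, chr11:58949344-58949369, plus strand: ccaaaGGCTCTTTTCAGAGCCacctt
*Hist1h3c*, chr13:23745042-23745067, minus strand: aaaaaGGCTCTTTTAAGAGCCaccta
*Hist1h4d*, chr13:23581945-23581970, plus strand: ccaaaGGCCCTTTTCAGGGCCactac
*Hist1h4j*, chr13:21735432-21735457, plus strand: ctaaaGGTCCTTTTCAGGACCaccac
*Hist2h2ac*, chr3:96220413-96220438, minus strand: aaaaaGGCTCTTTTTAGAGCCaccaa

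The form of *Hist1h1c* and *Hist3h2ba* was shared by 26 members of the H1, H2A, H2B and H3 classes. The form of *Hist1h3c* was found in 6 members, namely *Hist1h1t*, *Hist1h2bb*, *Hist1h2bk*, *Hist1h3c*, *Hist1h3e* and *Hist1h3f*. H4 genes had forms of their own: 7 shared that of *Hist1h4d*, 2 (*Hist1h4i* and *Hist2h4*) that of *Hist1h4i*, and 2 (*Hist1h4b* and *Hist1h4j*) that of *Hist1h4j*. Only *Hist2h2ac* had the last form. No stem-loop of this definition was found after the stop codon of *Hist1h1a*, *Hist1h2bc*, *Hist1h2bq*, *Hist1h2br*, *Hist1h3g*, *Hist1h4a*, *Hist2h2be* or *Hist2h3b*, which says only that these letters are not in the annotated transcript. The annotation of 15 further members stops at the stop codon or within 10 bases after it.

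Promoter sequences were matched by name in RefSeq for 61 members, each window running from 250 bases before to 50 bases after the start. A CCAAT box (CCAAT) was found on either strand in 52 (85.2%), against 37.8% of 26964 other promoters. All 49 matched promoters of the H1, H2A, H2B and H3 classes held it, and 3 of 12 H4 promoters did. A TATA box (TATAAA) was found in 35 (57.4%, against 14.1%). The octamer (ATTTGCAT), the site of POU-domain factors such as OCT1, was found in 7 of 17 H2A and 6 of 16 H2B promoters and in no H1, H3 or H4 promoter, or 21.3% of all members against 1.71% of other promoters. The H1 box (AAACACA) was found in 5 of 6 H1 promoters and in 9 members in all (14.8%, against 7.12%). A match is a description of letters and not a binding site. Windows of divergent H2A and H2B genes with starts close together overlap, so the same letters can count for both genes. With only the 100 bases before the start, the CCAAT box was found in 46 members (75.4%, against 19.5% of other promoters) and the TATA box in 19 (31.1%, against 5.89%). The octamer was then found in 5 members (8.20%, against 0.649%), all of them H2B genes. The H1 box was found in 2 (3.28%, against 2.15%) and in no H1 promoter, so what was found in H1 promoters with this motif and in H2A promoters with the octamer rests on letters outside these 100 bases.

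The windows of 3 members are printed because they stand for the contrasts in the counts. That of *Hist1h2ac* spans the 250 bases that separate it from the divergent *Hist1h2bc*. That of *Hist1h4i* belongs to the most abundant member and holds no CCAAT box, and that of *Hist1h1c* belongs to the most abundant linker histone gene. All are from RefSeq on GRCm38.p6, on the strand of the gene, with the 4 motifs in capitals in either orientation.
*Hist1h2ac*, chr13:23683910-23684209, minus strand: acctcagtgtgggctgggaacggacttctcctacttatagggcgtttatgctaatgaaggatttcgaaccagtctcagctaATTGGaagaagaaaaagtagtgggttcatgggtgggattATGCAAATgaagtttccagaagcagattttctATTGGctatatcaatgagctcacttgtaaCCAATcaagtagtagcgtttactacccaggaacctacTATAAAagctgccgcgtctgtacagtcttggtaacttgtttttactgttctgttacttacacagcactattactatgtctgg
*Hist1h4i*, chr13:22041313-22041612, minus strand: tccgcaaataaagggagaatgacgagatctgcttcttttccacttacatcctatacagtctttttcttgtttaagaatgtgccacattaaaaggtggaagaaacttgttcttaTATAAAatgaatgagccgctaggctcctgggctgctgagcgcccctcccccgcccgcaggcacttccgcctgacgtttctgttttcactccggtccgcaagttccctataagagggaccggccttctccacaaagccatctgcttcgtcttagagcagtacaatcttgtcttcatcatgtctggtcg
*Hist1h1c*, chr13:23738557-23738856, plus strand: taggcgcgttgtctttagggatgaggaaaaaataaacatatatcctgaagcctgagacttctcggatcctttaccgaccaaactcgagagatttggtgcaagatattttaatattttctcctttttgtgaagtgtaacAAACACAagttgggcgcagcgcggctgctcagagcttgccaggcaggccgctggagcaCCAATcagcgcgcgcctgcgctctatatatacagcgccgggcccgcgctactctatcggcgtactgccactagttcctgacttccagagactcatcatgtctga

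The libraries held 36544554, 35351031 and 40057435 counts on genes, and values are given as counts per 1000000 of these after TMM scaling (CPM). A gene at 0 counts could be present at up to 0.0777, 0.0843 and 0.0796 CPM, with 3 counts as the limit and counting error only. Reads overlapping more than 1 gene were left unassigned by the authors and made up 6.11%, 6.10% and 6.96% of the counted reads. The labelled tissue showed its defining genes: the 10 mesenchyme markers summed to 1628, 1731 and 1750 CPM and none was at 0. The libraries differed in markers of other tissues. The 7 neuron genes summed to 245, 23.9 and 34.2 CPM, the 5 eye and forebrain genes to 21, 140 and 131, and the 5 pigment cell genes to 2.41, 12.8 and 98.2, with no marker of these lists at 0 in all libraries. The 5 epithelium genes summed to 285, 193 and 213 CPM, the 4 endothelium genes to 218, 237 and 140, and the 4 erythroid genes to 1922, 3593 and 4233. All 5 pigment cell genes were highest in replicate 3, where the histone genes were highest too. Short genes were also high in replicate 3: the 1662 other genes of up to 1000 exonic bases had a median log2 ratio of 0.80 there against the mean of replicates 1 and 2, while that of all 17115 genes tested was -0.03. The part of these differences in the histone values was not tested.

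Histone genes took a small and unequal part of the libraries. Summed over the 67 genes, they reached 59.1 CPM in replicate 1, 71.5 in replicate 2 and 144 in replicate 3, a mean of 91.7 ± 46.1 (SD, n = 3). These were 2281, 2544 and 5442 counts, or 0.00624%, 0.00720% and 0.0136% of all counts on genes. Replicate 3 stood above the others, which lay close together, and without it the mean was 67.3. At least 10 counts in every library were reached by 22 members, 19 had at most 3 counts in every library, and 9 of these had none in any.

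Replication-independent histones, named from a list of 11 genes, had higher levels in the same libraries. Per 1000 exonic bases their median was 147 CPM, against 0.448 for the 67 replication-dependent genes. *H2afz*, which encodes H2A.Z, was at 1079, 1258 and 1436 CPM, and *H3f3b* and *H3f3a*, which encode the replacement form of histone H3, had means of 965 ± 93.1 and 803 ± 30.2 CPM (SD, n = 3). The most abundant replication-dependent gene, *Hist1h4i*, ranked 6493 among all genes by mean CPM. The plot of levels per length shows the 2 sets overlapping at their edges, where *H2afj*, the lowest replication-independent gene, was at 5.22 ± 2.20 CPM per 1000 exonic bases (SD, n = 3). *Hist1h4i*, at 39.5 ± 16.7, lay above it on this scale, as did *Hist3h2ba* at 13.5 ± 6.63 and *Hist1h3c* at 12.9 ± 8.28 (SD, n = 3). A capture on poly-T beads does not measure mRNAs without a tail, so these levels do not compare the amounts of the 2 kinds of mRNA in the tissue.

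**Figure D1:**
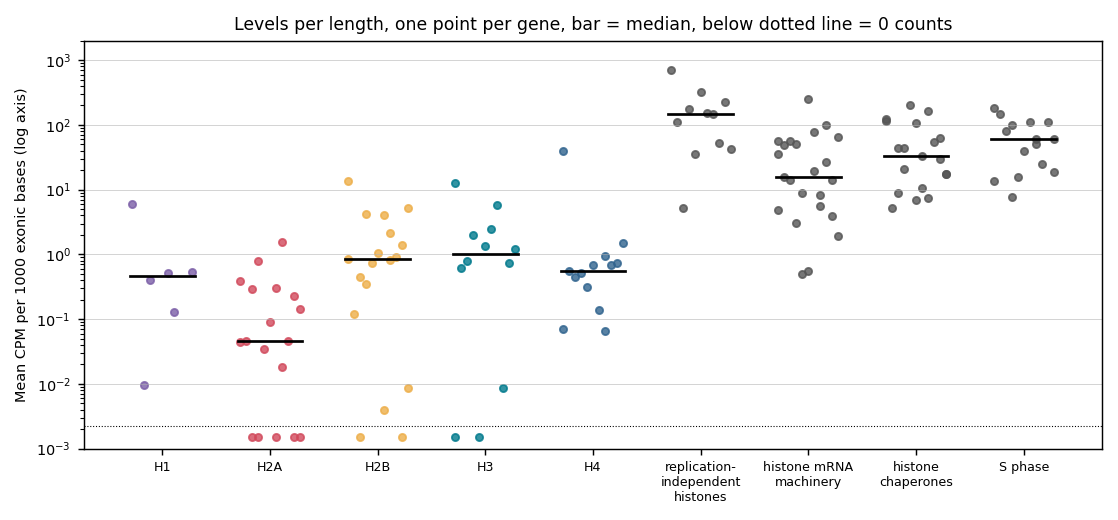
Mean CPM per 1000 exonic bases over the 3 libraries on a log axis, 1 point per gene and a bar at each median, for the 5 classes of replication-dependent histone genes (colours) and 4 lists of other genes (grey); points below the dotted line had 0 counts in every library. The class medians of the gene means lie between 0.0462 for H2A and 1.01 for H3, and that of the replication-independent histones lies at 147.

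Counts were concentrated in few members. *Hist1h4i*, an H4 gene at chr13:22040636-22041362 on the minus strand, had 749, 864 and 1599 counts, or 32.8%, 34.0% and 29.4% of all histone counts in replicates 1, 2 and 3. The 95% Wilson intervals of these shares, for counting error only, were 30.9% to 34.8%, 32.1% to 35.8% and 28.2% to 30.6%. The share in replicate 3 was thus below those of both others, without overlap of the intervals, although the count was the highest there. The 3 most abundant genes held 51.3% ± 2.38 of the counts, the first 10 held 80.6% ± 3.61 and the first 20 held 89.5% ± 1.86 (SD, n = 3). Without *Hist1h4i*, a sum tried only once the values were known, the other genes summed to a mean of 63.0 CPM.

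**Figure D2:**
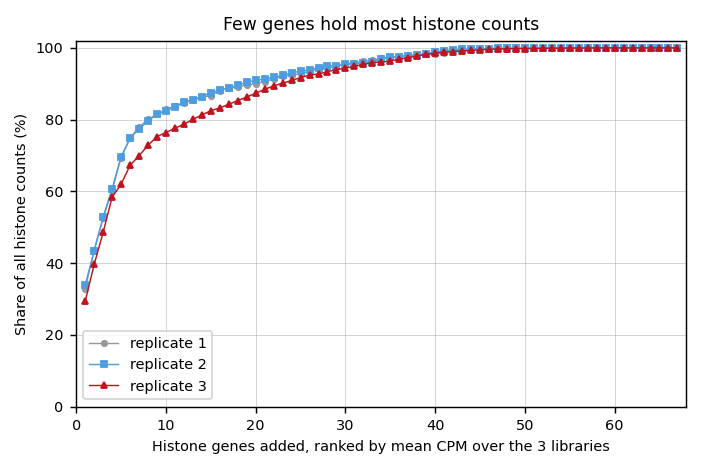
Cumulative share of all histone counts in percent as genes are added in order of mean CPM, 1 line per library. The lines reach 76.4% to 82.9% at the tenth gene, with replicate 3 lowest.

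Among core histone genes, H4 and H2B genes held the most counts. *Hist1h4i* was at 19.4, 24.3 and 42.4 CPM, a mean of 28.7 ± 12.1 (SD, n = 3). The next H4 gene, *Hist1h4j*, had a mean of 0.731 ± 0.728 CPM (SD, n = 3) and 9, 14 and 59 counts. H4 genes together held 36.2% ± 1.84 of all histone counts, and *Hist1h4i* alone held 32.1% ± 2.39 of all histone counts (SD, n = 3). All 13 H4 genes have the same coding length, and their coding sequences are 85.3% to 100% identical in pairs, with a median of 93.9%. Of its windows of 150 bases, 97.9% occur in no other annotated transcript.

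*Hist3h2ba*, an H2B gene at chr11:58948920-58949533, was at 5.23, 6.77 and 12.9 CPM. *Hist2h2be*, an H2B gene at chr3:96221119-96223738, was at 5.34, 6.35 and 5.20 CPM. *Hist1h2bc*, an H2B gene at chr13:23684199-23692908, was at 3.21, 3.76 and 7.62 CPM. *Hist3h2ba* and *Hist1h2bc* were thus highest in replicate 3, while the 3 values of *Hist2h2be* differed by no more than 1.22-fold. *Hist2h2be* and *Hist1h2bc* are among the genes in which no stem-loop was found, and a poly(A) signal (AATAAA or ATTAAA) lies in the last 50 annotated bases of *Hist2h2be* but not of *Hist1h2bc*. *Hist1h2bk* was at 1.84, 1.71 and 3.90 CPM and *Hist1h2bj* at 0.803, 1.26 and 3.50, again highest in replicate 3. The 18 H2B genes together held 30.7% ± 1.95 of the histone counts (SD, n = 3).

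H3 genes were led by *Hist1h3c* at chr13:23744973-23745602, with 4.64, 5.62 and 14.1 CPM. *Hist1h3h* was at 1.27, 1.69 and 4.19 CPM and *Hist1h3g* at 0.829, 0.702 and 1.62. The 12 H3 genes held 17.3% ± 2.54 of the counts (SD, n = 3), and 8 of them had at least 10 counts in every library, the largest number of any class. Their median level per 1000 exonic bases was 0.981 ± 0.725 CPM, which overlaps in its spread with the 0.901 ± 0.682 of H2B and the 0.545 ± 0.375 of H4 (SD, n = 3). Without replicate 3 these medians were 0.581 for H3, 0.526 for H2B and 0.350 for H4. Only 9.54% of the windows of *Hist1h3h* are found in no other transcript, so its 49, 60 and 158 counts are uncertain. Reads without a unique alignment were left off genes and made up 3.08%, 4.77% and 5.19% of the counted reads in replicates 1, 2 and 3.

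Linker histone genes were represented mainly by *Hist1h1c* at chr13:23738808-23740367, with 6.40, 6.77 and 14.8 CPM and 10.2% of histone counts on average. The other somatic H1 genes, *Hist1h1a*, *Hist1h1b*, *Hist1h1d* and *Hist1h1e*, had means from 0.383 to 0.963 CPM. H1 genes differ more in sequence than core histone genes do, and 5 of 6 had all of their windows unique. *Hist1h1t*, which encodes the testis linker histone, had 0, 0 and 1 counts. *Hist1h2aa* and *Hist1h2ba*, which encode the H2A and H2B forms of spermatogenic cells, had 0 counts in every library. The 3 germ cell marker genes summed to 0.622, 1.26 and 1.04 CPM.

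**Figure D3:**
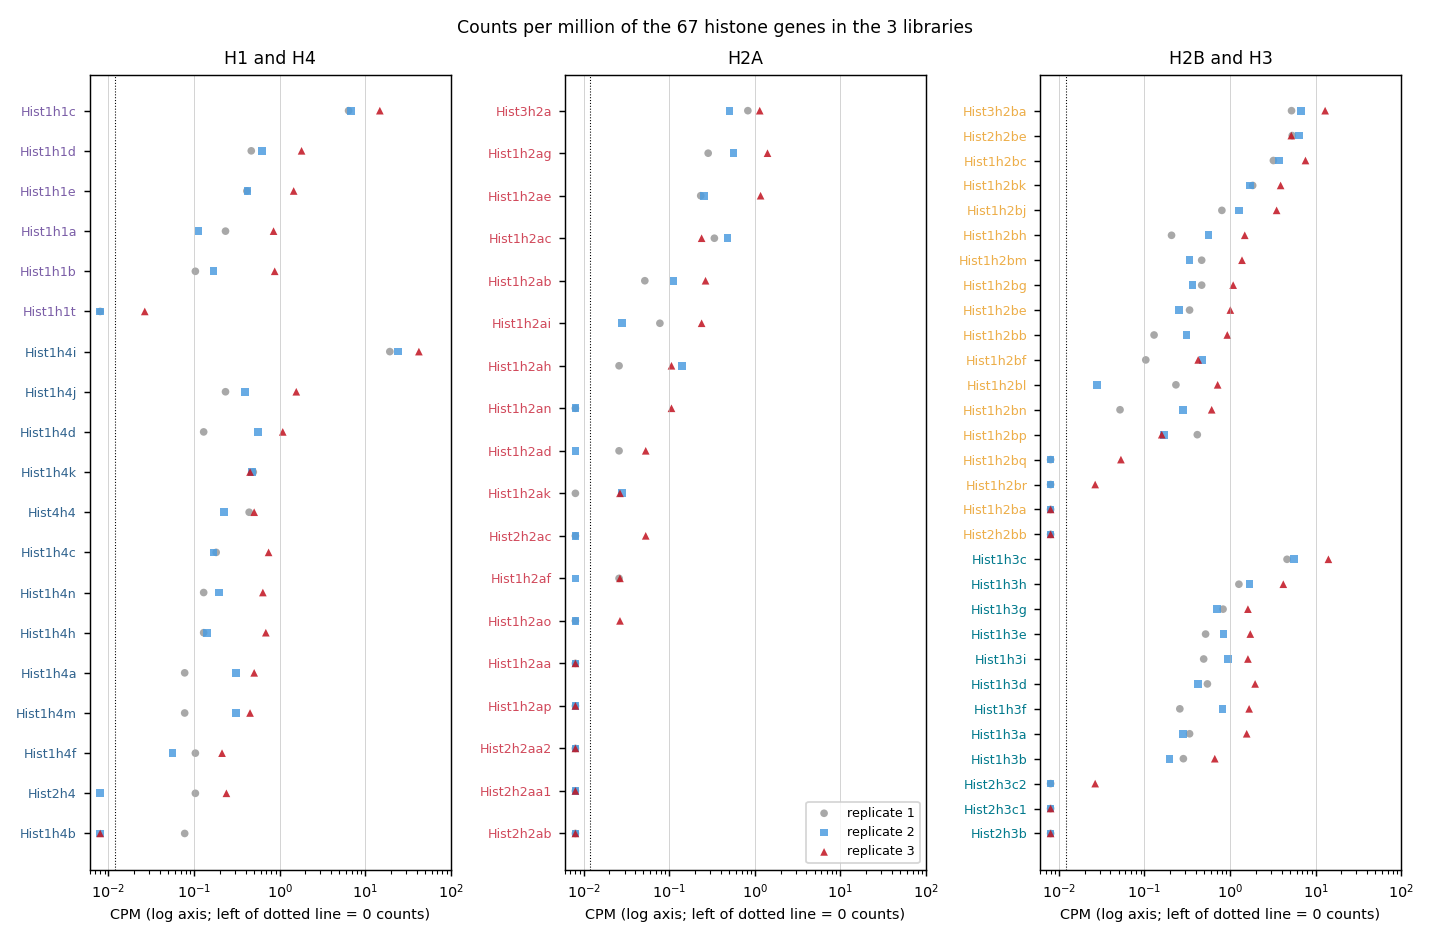
CPM of each of the 67 histone genes in replicates 1 (grey circles), 2 (blue squares) and 3 (red triangles) on a log axis, with gene names coloured by class; points left of the dotted line had 0 counts. Replicate 3 lies to the right of the others for 50 of the 58 genes with a count. Some of these, such as *Hist1h2an* with 0, 0 and 4 counts, had counts in that library alone. The share over all genes with a count was not computed, so the 50 is a description. The other 9 genes had no count, 5 of them in the H2A class.

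H2A genes held few counts. Although as numerous as the H2B genes, they held 3.17% ± 0.209 of the histone counts (SD, n = 3) against 30.7% for H2B. Only *Hist3h2a* and *Hist1h2ag* reached 10 counts in every library, 10 of 18 had at most 3 counts in every library and 5 had none. *Hist3h2a* (chr11:58954685-58956830) was at 0.829, 0.506 and 1.14 CPM and *Hist1h2ag* (chr13:22042460-22042944), the highest per length, at 0.285, 0.562 and 1.41. The median of the class per 1000 exonic bases was 0.0391 ± 0.0494 CPM (SD, n = 3), below the medians of the other classes in each library. Without replicate 3 it was 0.0117 CPM, and that of H1, the next class, 0.187.

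H2A genes also differed in annotation. All 18 shared exonic bases with another annotated gene, as did 1 H1, 2 H2B, 2 H3 and 1 H4 gene. In 17 of the 18 an annotated miRNA gene of 129 to 144 bases lay on the opposite strand, and no gene of the other classes had one. These 17 miRNA genes had 0 counts in total. Some of the 17 H2A genes overlapped other kinds of gene too. *Hist3h2a* shared 33.0% of its exonic bases with a protein-coding gene on the same strand. The bases shared with any gene, on either strand, were a median of 33.0% of the exonic bases of these 17 H2A genes. The authors' counting left reads overlapping more than 1 gene unassigned, the library kit does not mark strand and the strand setting of the counting was not given in the sources used here. As a description of the count files, of 53 other protein-coding genes with at least 90% of exonic bases under exons of the opposite strand, 44 (83.0%) had at most 3 counts in every library, against 5498 of 16574 (33.2%) with no such bases. Most H2A genes shared a far smaller part of their bases. Genes with a part like theirs were not counted, so the 83.0% cannot be read across to H2A genes. Near-identical copies were common in this class too, since 11 of 18 had fewer than 50% of windows unique. *Hist1h2ak* and *Hist2h2ac* had 100% of windows unique and 0 to 2 counts in each library, and *Hist1h2ag*, with 34.5% unique, had 11, 20 and 53. The part of either feature in the low counts was not tested.

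Over all classes, the 24 members that shared exonic bases with another gene held 4.52% of the counts and 14 of them had at most 3 counts in every library, whereas 5 of the 43 others had. The 24 members with fewer than 50% of windows unique held 8.62% of the counts, and 14 of them too had at most 3 counts in every library. The summed level without those members was 83.6 CPM. The 2 sets of 24 have many members in common, such as *Hist2h2aa1* and *Hist2h2aa2*, so they are not separate observations.

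Divergent pairs set H2A and H2B genes side by side at short distances. In 12 cases an H2A and an H2B gene were transcribed away from each other with 175 to 305 bases between their annotated starts. Per 1000 coding bases, which are nearly equal in the 2 classes, the H2B gene had the higher mean in the 9 pairs in which a gene exceeded 3 counts in some library. Single libraries held too few counts to order some of these pairs, since *Hist1h2ai* and *Hist1h2bl* had 1 count each in replicate 2 and *Hist1h2ak* and *Hist1h2bn* had 0 and 2 in replicate 1. The ranges over the 3 libraries did not overlap in 6 pairs, but 3 of these were set apart by few counts. *Hist1h2ak* had 0, 1 and 1 counts against 2, 10 and 23 for *Hist1h2bn*, *Hist1h2ad* had 1, 0 and 2 against 4, 17 and 16 for *Hist1h2bf*, and *Hist1h2an* had 0, 0 and 4 against 16, 6 and 6 for *Hist1h2bp*. Per 1000 exonic bases the H2B gene was also higher in these 9 pairs. The other 3 pairs, *Hist1h2ao* with *Hist1h2bq*, *Hist1h2ap* with *Hist1h2br* and *Hist1h2aa* with *Hist1h2ba*, had at most 2 counts in a library, so no order was detectable.

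*Hist2h2ac* had 0, 0 and 2 counts, and its partner *Hist2h2be*, 238 bases away, had 206, 226 and 196. *Hist1h2ac* had 13, 17 and 9 counts, and *Hist1h2bc*, across the 250 bases printed above, had 124, 134 and 287. The counts of *Hist1h2ac* were not beyond counting noise (adjusted p = 0.246 by the chi-square test described below), while those of *Hist1h2bc* were highest in replicate 3 (adjusted p = 1.19e-19). Per 1000 coding bases, *Hist1h2ac* was at 0.893 ± 0.305 CPM and *Hist1h2bc* at 12.8 ± 6.30, while *Hist1h2ae* and *Hist1h2bg*, at 1.403 ± 1.36 and 1.68 ± 1.03, lay within their spread (SD, n = 3).

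**Figure D4:**
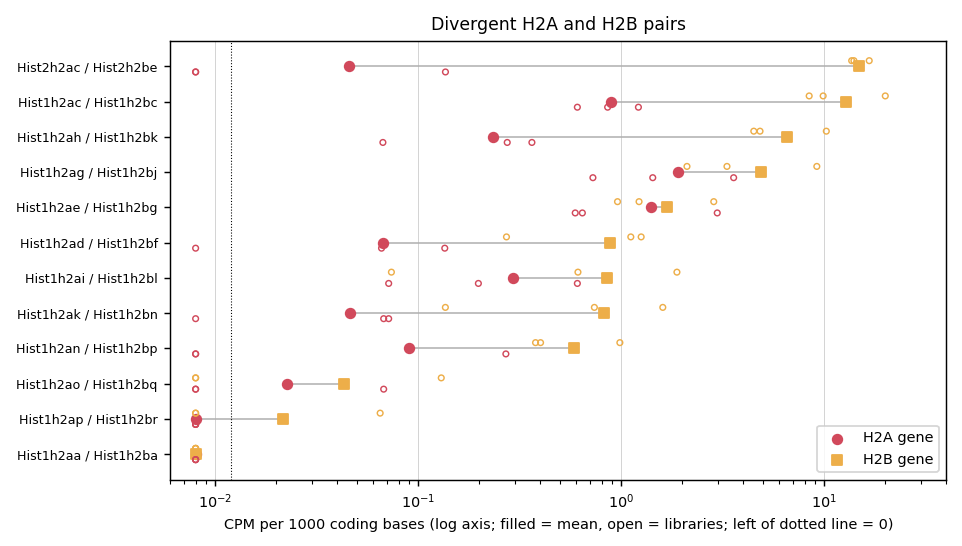
CPM per 1000 coding bases on a log axis for 12 divergent pairs of an H2A gene (red circles) and an H2B gene (yellow squares), with filled symbols for means, open circles for the 3 libraries and values left of the dotted line at 0. The H2B mean lies to the right in the upper 9 pairs, and the 3 lowest pairs had at most 2 counts in a library.

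Annotated 3′ ends were set beside the levels. The transcripts of 22 members run more than 100 bases past the stem-loop, and these genes held 62.1% ± 0.408 of the histone counts (SD, n = 3). Another 22 end close to the stem-loop and held 18.1% ± 2.60. The 8 with no stem-loop found held 14.4% ± 2.95, and the 15 whose annotation stops at or within 10 bases of the stop codon held 5.403% ± 0.765. The share on genes that run past the stem-loop was nearly the same in the 3 libraries. *Hist1h4i*, *Hist1h1c* and *Hist3h2ba* are of this kind, and their annotation goes on for 330, 840 and 169 bases after it, whereas *Hist1h3c* ends 74 bases after its stem-loop.

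A poly(A) signal in the last 50 annotated bases was present in 16 members, which held 62.4% ± 4.72 of the counts (SD, n = 3). Per 1000 exonic bases, however, the median gene with the signal was at 0.468 CPM and the median of the 51 without it at 0.448. *Hist1h4i* alone makes up about as much of the counts as the other 15 genes with the signal, so the share is not a property of the group as a whole. Medians per length likewise did not set apart genes that run past the stem-loop (0.446 CPM) from those that end near it (0.648 CPM). The counts do not show where the 3′ ends of the sequenced RNA lay.

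The 3 libraries differed in histone genes beyond counting noise. Each gene with a mean count of at least 10 was tested with a chi-square test of its 3 counts against the scaled library sizes (Benjamini-Hochberg adjusted p under 0.05 over all 17115 genes), which compares libraries and not conditions. Of the 41 histone genes tested, 37 were beyond counting noise, against 81.5% of all genes tested, a share near the background. Of these, 36 were highest in replicate 3, while 36.4% of all genes tested were beyond noise and highest there. The exception was *Hist1h2bf*, with 4, 17 and 16 counts. A member could pass the limit of 10 counts through replicate 3 alone, as *Hist1h1b* did with 4, 6 and 33 counts, so these counts over the 41 genes are a description. With genes chosen on replicates 1 and 2 only, a filter added once the values were known, 25 of 30 histone genes were beyond noise (81.3% of 16890 genes), and 24 of them were highest in replicate 3 (34.7% of all). *Hist2h2be* (adjusted p = 0.0928 by this chi-square test), *Hist1h4k* (19, 17 and 17 counts), *Hist1h2ac* and *Hist4h4* did not pass in either set, nor did *Hist1h2bp* (16, 6 and 6 counts) among the 30.

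The size of the difference was given as the log2 ratio of replicate 3 to the mean of the others, with a prior count of 2. The median over the 41 genes was 1.62, and it was -0.91 for replicate 1 and -0.52 for replicate 2 against their others. The last 2 values depended on the libraries they were set against: without replicate 3 they were -0.26 and 0.26, and without replicate 2 that of replicate 1 was -1.65. Replicate 3 was above the mean of the others in 38 of 41 genes (48.7% of all genes tested) and more than 2-fold above it in 34 (12.6% of all). The ratio was 0.97 for *Hist1h4i*, 1.17 for *Hist1h1c*, 1.11 for *Hist3h2ba* and 1.46 for *Hist1h3c*, and -0.16 for *Hist2h2be*. These values over the 41 genes carry the same limit.

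Of the 30 histone genes chosen on replicates 1 and 2, 26 were above the mean of the others in replicate 3 (46.4% of 16890 genes) and 22 more than 2-fold above it (10.6%), with a median of 1.30. By class, the medians of these 30 genes were 1.65 for 3 H1 genes, 0.77 for 3 H2A genes, 1.12 for 11 H2B genes, 1.47 for 8 H3 genes and 0.97 for 5 H4 genes. The 1523 other genes of up to 1000 exonic bases chosen in the same way had a median of 0.61, with 68.2% above the mean of the others and 34.7% more than 2-fold above it. Histone genes are short, with a median of 539 exonic bases. Once a smooth dependence on GC content and exonic length had been subtracted, the median over the 41 genes fell from 1.62 to 0.60. That of the 1662 other short genes tested fell from 0.80 to 0.17. Of the genes chosen on replicates 1 and 2, 29 histone genes could be fitted, with a median of 0.58, and 1450 other short genes, with a median of 0.048. Of the 29, 24 were above 0 (49.9% of all genes and 51.9% of other short genes) and 9 more than 2-fold above (5.17% and 9.66%). For *Hist1h4i* the ratio became 0.21 and for *Hist3h2ba* 0.09, while for *Hist1h1c* it was 0.55 and for *Hist1h3c* 0.49.

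**Figure D5:**
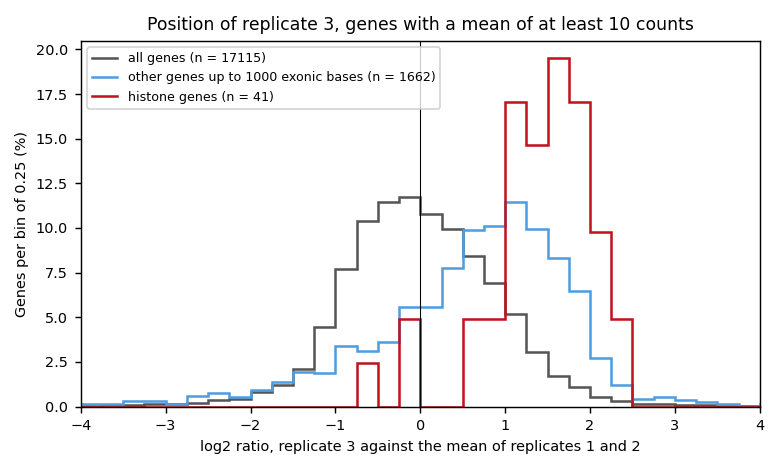
Distribution of the log2 ratio of replicate 3 to the mean of replicates 1 and 2, as the percentage of genes in bins of 0.25, for all 17115 genes tested (black), the 1662 other genes of up to 1000 exonic bases (blue) and the 41 histone genes tested (red). The histone genes lie mostly between 1 and 2.5, to the right of the short genes, with a median of 1.62 against 0.80.

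Replicates 1 and 2 were much closer to each other. Tested alone, 7 of 30 histone genes with a mean of at least 10 counts were beyond counting noise, against 48.8% of all genes, and all 7 were higher in replicate 2. They were *Hist1h4i*, *Hist1h3f*, *Hist1h4d*, *Hist1h2bf*, *Hist3h2ba*, *Hist1h2bh* and *Hist1h3i*. Many of the 30 had few counts, where a call is less likely, and no share over genes of like counts was computed. *Hist1h4i* had 749 and 864 counts in these libraries, *Hist1h4d* 5 and 20, and *Hist1h2bf* 4 and 17. The median log2 ratio of replicate 2 to replicate 1 was 0.26 over the histone genes and 0.22 over genes of up to 1000 exonic bases. Of the 30 histone genes, 19 were higher in replicate 2, against 50.4% of all genes and 67.5% of the 1523 other genes of up to 1000 exonic bases, so the histone genes lay close to other short genes here.

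Lists of genes that make, process and handle histone mRNA and protein were read in the same way, beside the 81.5% of all genes beyond counting noise and the 33.8%, 11.3% and 36.4% that were also highest in replicates 1, 2 and 3. Of the 11 replication-independent histones, all 11 were beyond counting noise and 8 of them highest in replicate 3. *H1fx*, a replacement linker histone gene of 1217 exonic bases, had 33.6, 42.9 and 119 CPM. In the list of 23 genes of histone mRNA transcription and processing, 20 were beyond noise, 11 of them highest in replicate 1 and 9 in replicate 3, with a median log2 ratio of -0.20 in replicate 3. *Slbp*, whose product binds the stem-loop, was at 133, 124 and 103 CPM, and *Npat*, the coactivator of histone gene transcription, at 36.3, 29.7 and 25.4. Both were thus lowest in replicate 3, and they have 6076 and 6248 exonic bases. *Snrpb*, *Snrpe* and *Snrpg*, which encode Sm proteins, were highest in replicate 3 at 645, 181 and 136 CPM.

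All 19 histone chaperone genes were beyond noise, with 7 highest in replicate 1, 4 in replicate 2 and 8 in replicate 3. *Nasp*, a chaperone of H3 and H4 with linker histone binding, was at 953, 921 and 941 CPM, and *Chaf1b*, a subunit of chromatin assembly factor 1, at 111, 131 and 218. Among 15 S phase genes, 14 were beyond noise, with 4, 6 and 4 highest in replicates 1, 2 and 3 and a median log2 ratio of -0.13 in replicate 3. *Pcna*, the sliding clamp of DNA polymerase, was at 440, 452 and 439 CPM, and *Rrm2*, a subunit of ribonucleotide reductase, at 469, 475 and 290. *Tyms*, thymidylate synthase, was highest in replicate 3 at 120, 136 and 202 CPM, as was *Gins2*, a subunit of the GINS complex, at 50.9, 61.6 and 83.9. The genes of these lists are longer than histone genes, with medians of 2055 exonic bases for the replication-independent histones, 5279 for mRNA transcription and processing, 4681 for chaperones and 4097 for S phase. With the dependence on length and GC content removed, the list medians in replicate 3 were 0.11, 0.038, 0.094 and -0.036 in the same order. No test of the difference between the lists was made.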

How the data were processed

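Libraries of poly-T selected RNA were prepared with a kit that does not mark strand. Per the submitters' processing notes, FastQC, STAR 2.7.3a and HTSeq 0.12.4 were used with mm10. The authors deposited raw counts per gene as whole numbers without normalization. The strand setting and annotation release were not given in the sources used here. Rows that name no gene held 14.2%, 15.7% and 16.4% of counted reads and were left out. Members and lists were chosen with earlier results of these data known. The 10 most abundant members, the highest of each class, 3 germ cell members and the 5 largest ratios between libraries among members with a mean of at least 100 counts were named with their values.

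CPM used edgeR 4.0.16 (TMM) in R 4.3.3, size factors from DESeq2 1.42.0 being an alternative. The dependence on GC content and length came from mgcv 1.9.3. For counting noise, the chi-square test had 2 degrees of freedom (scipy 1.17.1), with the step tested on simulated data. P-values measure the spread between these samples against sampling noise. GENCODE M21 gave lengths, overlaps, transcripts and the uniqueness of windows of 150 bases, the read length. Motifs were searched on both strands and the stem-loop on the coding strand only. Other scalings, filters and prior counts, and leaving out each replicate in turn, were tried.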

Additional observations from a re-analysis of the deposited data

Results flagged for a closer look

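Histone pseudogenes lie outside the comparisons above, and 2 of the 3 listed held counts beyond the 3 that a count of 0 allows. *Hist3h2bb-ps*, a processed pseudogene on chromosome 11, had 1, 2 and 10 counts in replicates 1, 2 and 3, or 13 in total. *Hist1h2aj*, an unprocessed pseudogene on chromosome 13, had 9, 4 and 3 counts, or 16 in total. The first was highest in replicate 3 and the second in replicate 1. Whether these reads belong to near-identical coding genes was not tested.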

How the results depend on the processing

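For 21 results 76 alternative values were computed, of which 65 moved by less than the spread set for the result or by no more than 1.5 times a count. For the log2 ratios of the histone genes that spread was wide, at 1.06. For the ratio over genes chosen on replicates 1 and 2 it was the SD over genes. The 65 thus include the change of sign in replicate 2 and the fall of replicate 3 to 0.60 given below. The number of genes with at least 10 counts in every library was 22, against 46 for at least 1 count and 8 for at least 1 CPM, as the limits themselves imply, and 23 to 30 with each replicate left out. The number beyond counting noise was 37, from 7 to 37 with each replicate left out (7 of 30 tested without replicate 3), 37 to 40 under other scalings and filters, and 25 over genes chosen on replicates 1 and 2. The summed level of 91.7 CPM ranged from 67.3 to 105 with each replicate left out, from 83.6 to 91.9 under other scalings and without the members of few unique windows, and was 63.0 without *Hist1h4i*. The median log2 ratio of replicate 3 ranged from 0.60 with the dependence on length and GC removed to 1.72 with a smaller prior count, was 1.30 over genes chosen on replicates 1 and 2, and that of replicate 2 turned from -0.52 to 0.26 without replicate 3. With that dependence removed, a choice added once the values were known, the median of the mRNA processing list turned from -0.20 to 0.038 and that of the chaperones from -0.19 to 0.094. Per coding length the class medians of H1 and H3 were 0.903 and 2.11 CPM. With windows of 75 bases, the median share of unique windows was 57.6% in place of 75.5%.

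Uniqueness was measured among annotated transcripts, and a comparison with the whole genome and a search 100 bases past annotated ends were not run, since no genome sequence was used here. No paired analysis was possible because there is 1 group. Depth limits the 19 genes at or below 3 counts, whose order was not detectable.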
